A study of Arabidopsis thaliana with 6 samples.

Results

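The transcripts of 6 flowering genes of Arabidopsis thaliana were compared between gemin2 mutants and the wild type: CO (Constans, AT5G15840), FT (Flowering locus T, AT1G65480), TSF (Twin sister of FT, AT4G20370), SOC1 (Suppressor of overexpression of CO, AT2G45660), SVP (Short vegetative phase, AT2G22540) and AGL24 (an Agamous-like gene, AT4G24540). They were chosen by name, as the genes that join the flowering signals together with SVP and AGL24, and the choice used no threshold on a measured value. They are 6 of the 33602 loci in the deposited gene count table. They have 2 of the 7973 deposited alternative splicing bins and 18 of the 65535 introns analysed here. RNA-seq libraries of polyadenylated RNA came from whole plants of gemin2 mutants (3 libraries) and of the Col wild type (WT, 3 libraries). All plants were 9 days old and had been grown on Murashige and Skoog medium at 22 °C in continuous light after a cold dark period as seeds, and the labels name no other treatment. The headers of the authors' result tables name the allele gemin2-1, and the mutants are in the Col background as well. A library held the tissues of whole plants pooled, so fewer cells of a type and less RNA per cell cannot be told apart in any value below.

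In plants that receive long days, CO, a B-box zinc finger protein, accumulates in the phloem companion cells of leaves and switches on FT and TSF. FT and TSF are small mobile proteins, the florigens, that travel to the shoot apex and work there with the bZIP factor FD. SOC1, a MADS-box transcription factor, is raised at the apex by this signal and passes it on to LFY and the other genes of the floral meristem. SVP and AGL24 are closely related MADS-box proteins with opposite roles: SVP represses FT and SOC1, in part together with FLC and FLM, whereas AGL24 promotes flowering and acts with SOC1, each raising the other. GEMIN2 is a core protein of the complex that assembles spliceosomal snRNPs, so both the amount of each transcript and its splicing were of interest here.

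SOC1 and SVP transcripts were higher in gemin2 and AGL24 transcripts were lower, while the change of FT was smaller than its error and CO missed the threshold. SOC1 was 1.58-fold and SVP 1.32-fold higher, and AGL24 was at 0.338 of its WT level. Of the 6 genes, 5 had enough reads to be tested and 3 had an adjusted p under 0.05 (edgeR's quasi-likelihood test with Benjamini-Hochberg adjustment over all 20762 genes tested), 2 higher and 1 lower. That count has to be read against a wide response: 36.7% of all genes tested passed the same threshold, 17.8% as higher and 18.9% as lower. The libraries of the genotypes did not overlap in level for 3 of the 5 tested genes, SOC1, SVP and AGL24, against 48.1% of all genes tested. Ranked by the size of the change, AGL24 stood at the 99.0th percentile of all tested genes, SOC1 at the 91.7th, CO at the 89.5th, SVP at the 79.6th and FT at the 58.4th.

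The libraries held 15467372 to 17217408 gene reads in gemin2 and 14049163 to 16732098 in WT. GEMIN2 itself had 71, 77 and 74 reads in gemin2, against 239, 262 and 221 in WT, a log2 fold change of -1.82 (SE 0.0968) and in the direction of the labels. Organelle loci took 0.539% to 0.815% of the gene reads in gemin2 and 0.182% to 0.480% in WT. Left out together with rRNA loci, they moved no call among the 5 tested genes, with SOC1 at 0.66, SVP at 0.40 and AGL24 at -1.56 as before. Levels are given below as CPM, gene reads scaled to a common library size after TMM normalisation, and log2 fold changes are gemin2 over WT. Where a genotype has 3 values, they belong to its libraries A, B and C in that order.

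**Figure D1:**
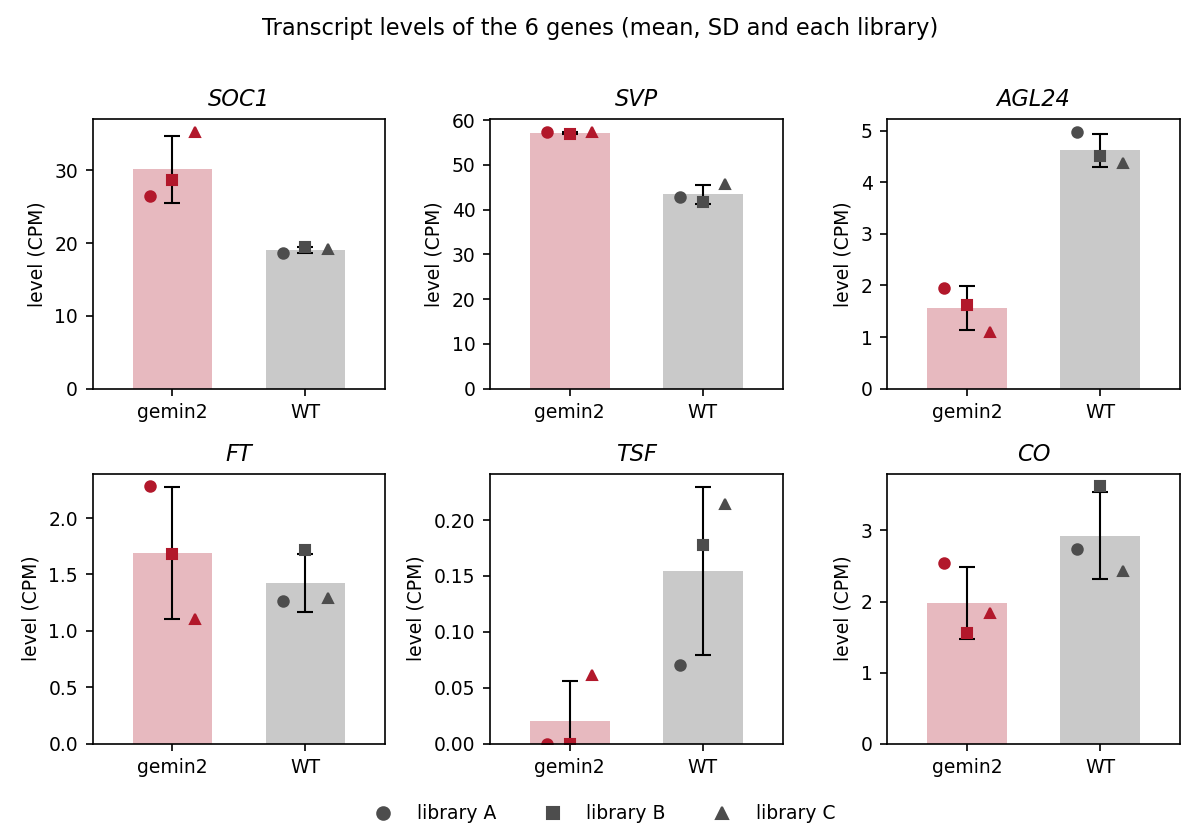
Level of each of the 6 genes in CPM (y axis, each panel with its own scale from 0) in the 3 gemin2 and the 3 WT libraries; bars are means, error bars SD, and symbols the libraries A, B and C. SOC1, SVP and AGL24 have libraries that do not overlap between the genotypes, whereas those of FT and CO do, and TSF rests on 1 read in gemin2 and 7 in WT.

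CO lies on chromosome 5 (chr5:5171182-5172758, minus strand, TAIR10) and has a coding sequence of 1122 bases in 2 exons, of 762 and 360 bases. It had 2.54, 1.56 and 1.85 CPM in gemin2, against 2.74, 3.62 and 2.43 CPM in WT. The gemin2 A library lay above WT C, so the genotypes overlapped. The means were 1.98 ± 0.503 CPM in gemin2 and 2.93 ± 0.617 CPM in WT (SD, n = 3 each), from 96 reads in gemin2 and 134 in WT. The log2 fold change was -0.59 (SE 0.228, 95% interval -1.07 to -0.10), with an adjusted p of 0.0563 in edgeR's quasi-likelihood test (0.0214 before adjustment). Across the alternatives the adjusted p ran between 0.0246 and 0.267. It fell under 0.05 without gemin2 A (log2 fold change -0.79, adjusted p 0.0246), without WT C (-0.70, adjusted p 0.0475), with no filter on low counts (adjusted p 0.0449) and in a robust fit (adjusted p 0.0429), and stood at 0.159 in DESeq2. Without WT B, the library with the most CO reads, the log2 fold change was -0.39.

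The only intron of CO is annotated as a retained intron, the splicing bin E003 (chr5:5171703-5171935, 233 bases). It is printed because a transcript that keeps it reads into a stop codon within the intron: in the annotated retained model, TGA, in capitals, follows 60 intron bases and leaves a coding sequence of 825 bases in place of 1122.
CO E003, 5′ to 3′ on the minus strand: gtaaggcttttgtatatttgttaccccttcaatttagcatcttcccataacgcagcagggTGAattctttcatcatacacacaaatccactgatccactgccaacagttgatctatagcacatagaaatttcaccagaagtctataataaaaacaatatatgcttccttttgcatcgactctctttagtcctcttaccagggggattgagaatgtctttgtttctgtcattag
The bin had 2, 0 and 5 reads in gemin2, and 3, 7 and 2 reads in WT. Relative to the gene this was 7.26 ± 8.54 reads per 100 CO reads in gemin2 and 8.35 ± 2.85 in WT (SD, n = 3 each), with overlapping libraries. The bin had too few reads to be tested. The deposited length of CO, 1577 bases, equals the whole span of the locus, so the intron counts as exon in that gene model. With the reads of the bin taken off the gene count, a check chosen after the data were seen, the log2 fold change of CO was -0.56 (adjusted p 0.0697).

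FT lies on chromosome 1 (chr1:24331428-24333934, plus strand) and TSF on chromosome 4 (chr4:11000771-11002996, minus strand). Their coding sequences have the same exon lengths, 201, 62, 41 and 224 bases, which make 528 bases each. They are identical at 82.2% of positions, and the longest stretch of identical bases is 29. This stretch is shown in capitals with its surroundings, positions 97 to 155 of each coding sequence (RefSeq models on TAIR10.1), because it is the longest run of coding sequence that the 2 genes have in common.
FT: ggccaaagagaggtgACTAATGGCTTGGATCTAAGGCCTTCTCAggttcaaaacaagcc
TSF: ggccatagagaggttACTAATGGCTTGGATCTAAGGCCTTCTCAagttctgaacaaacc
FT had 35, 29 and 18 reads in gemin2, against 18, 29 and 18 reads in WT. In CPM these were 2.28, 1.68 and 1.11 in gemin2 and 1.26, 1.72 and 1.29 in WT. The gemin2 libraries spanned the WT ones: A was the highest of all 6 and C the lowest. The means were 1.69 ± 0.586 CPM in gemin2 and 1.42 ± 0.258 CPM in WT (SD, n = 3 each). The log2 fold change of 0.22 (SE 0.282, 95% interval -0.38 to 0.83) had an adjusted p of 0.572 in edgeR's quasi-likelihood test, and the interval allows 0.770 to 1.77 times the WT level. A single library decided its direction: without gemin2 A the log2 fold change was -0.037, and without gemin2 C it was 0.45.

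TSF was close to undetected. It had 0, 0 and 1 reads in gemin2, and 1, 3 and 3 reads in WT, and it did not pass the filter on low counts. The ratio of the summed reads, scaled by library size, was 0.132 gemin2 over WT (95% exact interval 0.00292 to 1.03, which covers counting error only). With no filter the log2 fold change was -2.52, with p 0.0528 and an adjusted p of 0.133 in edgeR's quasi-likelihood test. Scaled by library size, every gemin2 library lay below every WT library, by less than the worth of 1 read for gemin2 C and WT A. The test did not pass, and the interval reaches from near 0 to just above 1.

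The 3 introns of FT, all with GT-AG ends in TAIR10.1, took 1, 1 and 1 reads in gemin2, and 1, 1 and 2 reads in WT. They cover 1652 bases, and the read density over them was 2.46% of that over the exons, summed over the 6 libraries. None had enough reads to be tested. The introns of TSF and AGL24, on chromosome 4, and the intron table entries of CO, on chromosome 5, were not analysed here.

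SOC1 (AGL20 in the deposited table) lies on chromosome 2 (chr2:18807538-18811047, minus strand). It had 26.5, 28.6 and 35.3 CPM in gemin2, against 18.6, 19.4 and 19.2 CPM in WT. Every gemin2 library lay above every WT library, and gemin2 C stood above the other two. The means were 30.2 ± 4.59 CPM in gemin2 and 19.1 ± 0.417 CPM in WT (SD, n = 3 each), from 1476 reads in gemin2 and 860 in WT. The log2 fold change was 0.66 (SE 0.0916, 95% interval 0.47 to 0.86; adjusted p 5.16e-05 in edgeR's quasi-likelihood test), a fold of 1.58 with an interval of 1.38 to 1.81. The smallest value with a library left out was 0.53, without gemin2 C.

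SVP lies on chromosome 2 as well (chr2:9579874-9583893, plus strand). It had 57.4, 56.9 and 57.3 CPM in gemin2, against 42.9, 41.6 and 45.8 CPM in WT. The gemin2 libraries differed by less than 1 CPM among themselves and all lay above the WT libraries. The means were 57.2 ± 0.229 CPM in gemin2 and 43.4 ± 2.12 CPM in WT (SD, n = 3 each). The log2 fold change was 0.40 (SE 0.0529, 95% interval 0.29 to 0.51; adjusted p 3.50e-05 in edgeR's quasi-likelihood test), a fold of 1.32 with an interval of 1.22 to 1.43.

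AGL24 lies on chromosome 4 (chr4:12670965-12674072, minus strand). It had 1.95, 1.62 and 1.11 CPM in gemin2, against 4.98, 4.51 and 4.36 CPM in WT. Each gemin2 library lay below each WT library by a wide margin. The means were 1.56 ± 0.427 CPM in gemin2 and 4.62 ± 0.323 CPM in WT (SD, n = 3 each), from 76 reads in gemin2 and 208 in WT. The log2 fold change was -1.56 (SE 0.202, 95% interval -1.99 to -1.13; adjusted p 2.69e-05 in edgeR's quasi-likelihood test), which is 0.338 of the WT level with an interval of 0.251 to 0.455. With each library left out in turn it ran between -1.74 and -1.37.

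SVP and AGL24, which moved in opposite directions, are close relatives in sequence. Their coding sequences, of 723 bases in 9 exons and 663 bases in 8, matched at 68.5% of aligned positions, more than SOC1 matched either of them (56.6% for AGL24 and 57.2% for SVP). Their first exons have the same coding length, 182 bases, as has that of SOC1. For SVP this length includes the 15 bases of the alternative splice site bin E002, described below. The longest stretch shared by SVP and AGL24 was 18 bases, shown in capitals within positions 115 to 162 of the coding sequences, in the part that encodes the MADS domain.
SVP: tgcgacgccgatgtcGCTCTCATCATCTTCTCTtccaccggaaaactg
AGL24: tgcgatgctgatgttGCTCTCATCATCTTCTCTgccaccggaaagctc
Between SOC1 and either of them the longest shared stretch was 12 bases. No locus of the deposited table overlapped any of the 6 genes, so reads of an overlapping gene on the other strand do not enter their counts, although the protocol marks no strand.

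Levels of different genes are compared as CPM per kb of the deposited gene length, which for CO includes the intron bin E003. In gemin2 the order of the means was SVP (36.8 ± 0.147), SOC1 (22.8 ± 3.48), FT (1.97 ± 0.686), AGL24 (1.48 ± 0.405), CO (1.26 ± 0.319) and TSF (0.0257 ± 0.0444). In WT it was SVP (27.9 ± 1.36), SOC1 (14.4 ± 0.316), AGL24 (4.39 ± 0.307), CO (1.86 ± 0.391), FT (1.66 ± 0.301) and TSF (0.193 ± 0.0940; SD, n = 3 each). In gemin2 the ranges of FT, AGL24 and CO overlapped, so the order among these 3 is not resolved. In WT the ranges of CO and FT overlapped, and AGL24 lay above both. Over the 1344 exon bases of CO alone, without the reads of E003, its level was 1.37 ± 0.370 CPM per kb in gemin2 and 1.99 ± 0.353 in WT (SD, n = 3 each), which leaves its place in both orders and the overlaps as they were. As a description within each library, the ratio of SVP to AGL24 in CPM per kb was 19.9, 23.8 and 35.0 in gemin2, against 5.82, 6.25 and 7.10 in WT. The ratio of SOC1 to SVP was 0.545, 0.593 and 0.727 in gemin2, against 0.511, 0.549 and 0.494 in WT, and these libraries overlapped. The ratio of FT to CO was 1.66, 1.98 and 1.11 in gemin2, against 0.851, 0.877 and 0.976 in WT, with each gemin2 library above each WT library. With the exons of CO alone it was 1.49, 1.69 and 1.13 in gemin2, against 0.786, 0.844 and 0.884 in WT. The closest libraries of the 2 genotypes in this ratio, gemin2 C and WT C, had 18 FT reads each. Their CO reads were 30 in gemin2 C and 34 in WT C. Neither FT nor CO passed its own test, and the ratio was not tested.

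The authors' deposited table of 1226 changed genes, in which the smallest absolute log2 fold change is 0.586, lists SOC1 at 0.66 (false discovery rate 8.64e-10) and AGL24 at -1.56 (false discovery rate 3.53e-13). SVP is in the authors' deposited list of 16962 expressed genes but not among the changed ones. CO, FT and TSF are in neither of these deposited lists. The authors' deposited lists of altered splicing bins (321) and introns (1351) hold 0 bins and 0 introns of the 6 genes.

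Splicing of the transcripts was measured relative to the gene's own reads, so that a change in the amount of transcript does not count as a change in splicing. The 20 bins and introns analysed belong to FT, SOC1, SVP and CO, and none to TSF or AGL24. Of the 20, 1 bin and 4 introns had enough reads to be tested. In edgeR's quasi-likelihood test with the gene count as offset, 0 of these 5 had an adjusted p under 0.05 and 1 had an unadjusted p under 0.05. DESeq2 with the same offset called 0. Over all loci, 4.71% of the 4649 bins tested passed. Of the 4938 introns tested, which cover only part of the genome, 9.4% passed.

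The tested bin is E002 of SVP, an alternative 5′ splice site that adds 15 bases, or 5 codons, to the first coding exon (chr2:9580584-9580598). Both sites can be seen in the plus-strand sequence of chr2:9580560-9580622, printed with the bin in capitals: an intron that starts at the first site and one that starts at the second, after the capitals, both begin with GT.
SVP E002: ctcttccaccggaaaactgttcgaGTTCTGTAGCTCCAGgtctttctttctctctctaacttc
E002 had 103, 97 and 103 reads in gemin2, against 60, 77 and 79 reads in WT. Per 100 SVP reads this was 11.7, 9.86 and 11.1 in gemin2, against 9.82, 11.0 and 12.3 in WT. The genotypes overlapped, with means of 10.9 ± 0.932 in gemin2 and 11.0 ± 1.26 in WT (SD, n = 3 each). The log2 change relative to the gene was -0.027 (SE 0.131, 95% interval -0.29 to 0.24; adjusted p 0.963 in edgeR's quasi-likelihood test). Reads per 100 gene reads depend on read and bin length and are not the share of transcripts that use the site.

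The SOC1 intron I002 was the 1 feature under an unadjusted p of 0.05. It is 122 bases long (chr2:18808201-18808322) and is also kept in an annotated SOC1 transcript model, where it brings in a stop codon, TAG, in capitals, after 6 intron bases and shortens the coding sequence to 477 bases, against 645 in the spliced model.
SOC1 I002, 5′ to 3′ on the minus strand: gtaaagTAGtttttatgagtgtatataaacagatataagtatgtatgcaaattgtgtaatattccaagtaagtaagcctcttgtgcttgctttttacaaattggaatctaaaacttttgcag
It had 4, 7 and 7 reads in gemin2, against 8, 8 and 5 reads in WT. Per 100 SOC1 reads this was 0.983, 1.41 and 1.22 in gemin2, against 3.02, 2.45 and 1.87 in WT, and the genotypes did not overlap. The log2 change relative to the gene was -0.98 (SE 0.407, 95% interval -1.86 to -0.11), with p 0.0310 and an adjusted p of 0.159 in edgeR's quasi-likelihood test, so it did not pass. The intron reads themselves overlapped between the genotypes, and SOC1 gene reads were higher in gemin2. Scaled by library size in place of the gene, the log2 change of the intron was -0.33 (adjusted p 0.678 in edgeR's quasi-likelihood test). How far the intron and the gene each account for the lower ratio was not tested.

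**Figure D2:**
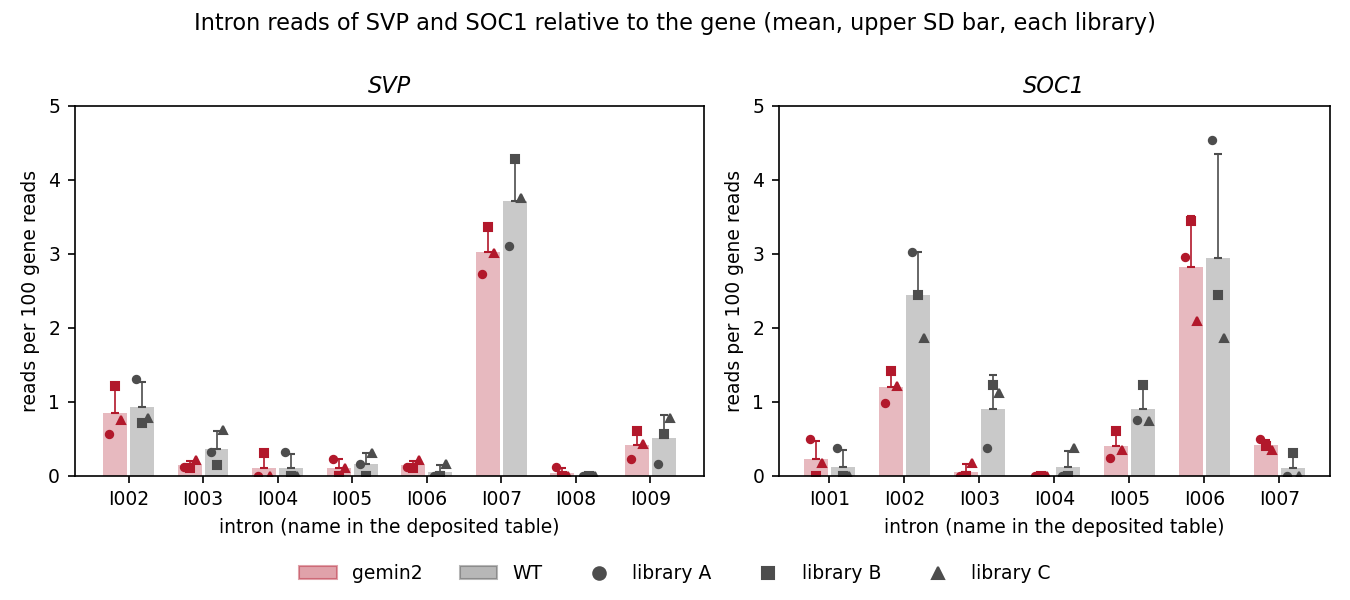
Reads in each intron of SVP (left) and SOC1 (right) per 100 reads of the gene (y axis), by the intron names of the deposited table (x axis); bars are means of 3 gemin2 (red) and 3 WT (grey) libraries, whiskers the upper SD, and symbols the libraries. In SOC1 I002 the gemin2 libraries lie at 0.983 to 1.41 and the WT libraries at 1.87 to 3.02, while in SVP I007, the SVP intron with the most reads, the genotypes overlap.

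The other tested introns did not pass. SVP I007 (chr2:9582431-9582901, 471 bases) had 24, 33 and 28 reads in gemin2, against 19, 30 and 24 reads in WT, with a log2 change of -0.29 relative to the gene (SE 0.217, 95% interval -0.76 to 0.17; adjusted p 0.470 in edgeR's quasi-likelihood test). SVP I002, of 907 bases, had a log2 change of -0.10 (SE 0.445, 95% interval -1.06 to 0.85). SOC1 I006, the longest SOC1 intron at 1002 bases, had one of -0.061 (SE 0.385, 95% interval -0.89 to 0.77). The 3 intervals span changes in either direction. Among the introns with too few reads for a test, SOC1 I003 had 0, 0 and 1 reads in gemin2 and 1, 4 and 3 in WT, while I007 had 2, 2 and 2 reads in gemin2 and 0, 1 and 0 in WT.

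Summed over its 7 introns, SOC1 had 5.16, 5.86 and 4.36 intron reads per 100 gene reads in gemin2, against 9.06, 7.65 and 5.97 in WT. The lowest WT library lay just above the highest gemin2 library. As counts the sums were 21, 29 and 25 reads in gemin2 and 24, 25 and 16 reads in WT, so they overlapped before division by the gene. SVP, with 8 introns, had 4.09, 5.69 and 4.73 per 100 gene reads in gemin2, against 5.40, 5.70 and 6.41 in WT, and these overlapped. Read density over the introns was 3.61% of that over the exons in SOC1 and 3.32% in SVP, over all 6 libraries. The 18 introns analysed, of FT, SVP and SOC1, all begin with GT and end with AG in TAIR10.1.

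The other genes of the pathway were taken in lists of their roles. Of 60 listed genes, 53 were tested, and 19 were higher and 10 lower in gemin2 at an adjusted p under 0.05 in edgeR's quasi-likelihood test, against 17.8% higher and 18.9% lower among all genes. Their median log2 fold change was 0.056, against -0.0010 for all genes tested. Among the 12 genes of light and clock input to CO, 8 were higher and the other 4 did not pass, with a median of 0.24. GI, a clock protein that relieves repression of the CO gene, had a log2 fold change of 0.87 (SE 0.0675, adjusted p 2.09e-07), from 37.8 ± 1.53 CPM in gemin2 and 20.8 ± 1.63 CPM in WT (SD, n = 3 each). CDF3, a DOF factor of the family that represses CO, had one of 0.78 (SE 0.0593). GI and CDF3 were thus both higher, and CO itself did not pass. Any link between these changes was not tested.

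The next step holds the relatives and partners of CO. Of 11 CO-like and NF-Y genes, 3 were higher and 1 lower, with a median log2 fold change of 0.0056. COL5 had 1.04 (SE 0.0690), COL2 had 0.37 (SE 0.0545) and COL9, which is known to delay flowering, had -0.42 (SE 0.0728). Of 7 relatives and partners of FT, 2 were higher and the other 5 did not pass, with a median of -0.0046. ATC, an FT relative that represses flowering, had 0.44 (SE 0.0934). FDP, the close relative of FD, had 0.90 (SE 0.246, adjusted p 0.00956), a call lost in DESeq2 (adjusted p 0.0559) and without WT B (adjusted p 0.0579). FD, named after its values were seen, had 33, 40 and 45 reads in gemin2, against 41, 37 and 31 reads in WT, with an adjusted p of 0.989.

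Among 15 repressors of FT and SOC1, 3 were higher and 7 lower, with a median log2 fold change of -0.16. FLC, the MADS-box repressor silenced by vernalization, had 8, 6 and 4 reads in gemin2, against 48, 53 and 27 reads in WT, a log2 fold change of -2.91 (SE 0.336). FLM, its relative that acts with SVP at ambient temperature, had -0.44 (SE 0.0589). Both fell, whereas SVP rose. The AP2 repressor SNZ had 0.27 (SE 0.0767, adjusted p 0.0131) and TEM1, a repressor of FT, had 0.34 (SE 0.124, adjusted p 0.0432). Neither call held in every alternative: that of SNZ was lost without WT B (adjusted p 0.0738) and without gemin2 C (adjusted p 0.0625), and that of TEM1 in DESeq2 (adjusted p 0.0715), in the robust fit (adjusted p 0.0602) and without WT A, WT C, gemin2 A or gemin2 B (up to 0.179).

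Genes that act after SOC1 and FT at the apex were sparsely read. Of 11 floral meristem targets, 6 were tested, 3 of them higher and 1 lower, with a median log2 fold change of 0.90. SPL3, which promotes the floral transition and is repressed by miR156, had 98, 104 and 103 reads in gemin2, against 47, 40 and 30 reads in WT, a log2 fold change of 1.26 (SE 0.164). SPL5 had 1.17 (SE 0.249). SPL3 overlaps AT2G33815 and SPL5 overlaps AT3G15260, and without strand the reads of the overlapping genes cannot be told apart. AGL42, a close relative of SOC1, had -1.36 (SE 0.306), with 7, 8 and 13 reads in gemin2 and 20, 24 and 23 in WT. LFY and AP1, the floral meristem identity genes, were also looked up after their values were seen: LFY had 3, 4 and 3 reads in gemin2 and 1, 1 and 0 in WT, and AP1 had 0, 0 and 0 reads in gemin2 and 0, 0 and 1 in WT, both too few to test. Of 4 further MADS relatives of SOC1, 2 were tested, and AGL14, a root and apex gene, was lower at -2.57 (SE 0.349), with 4, 7 and 5 reads in gemin2 and 36, 24 and 29 in WT.

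**Figure D3:**
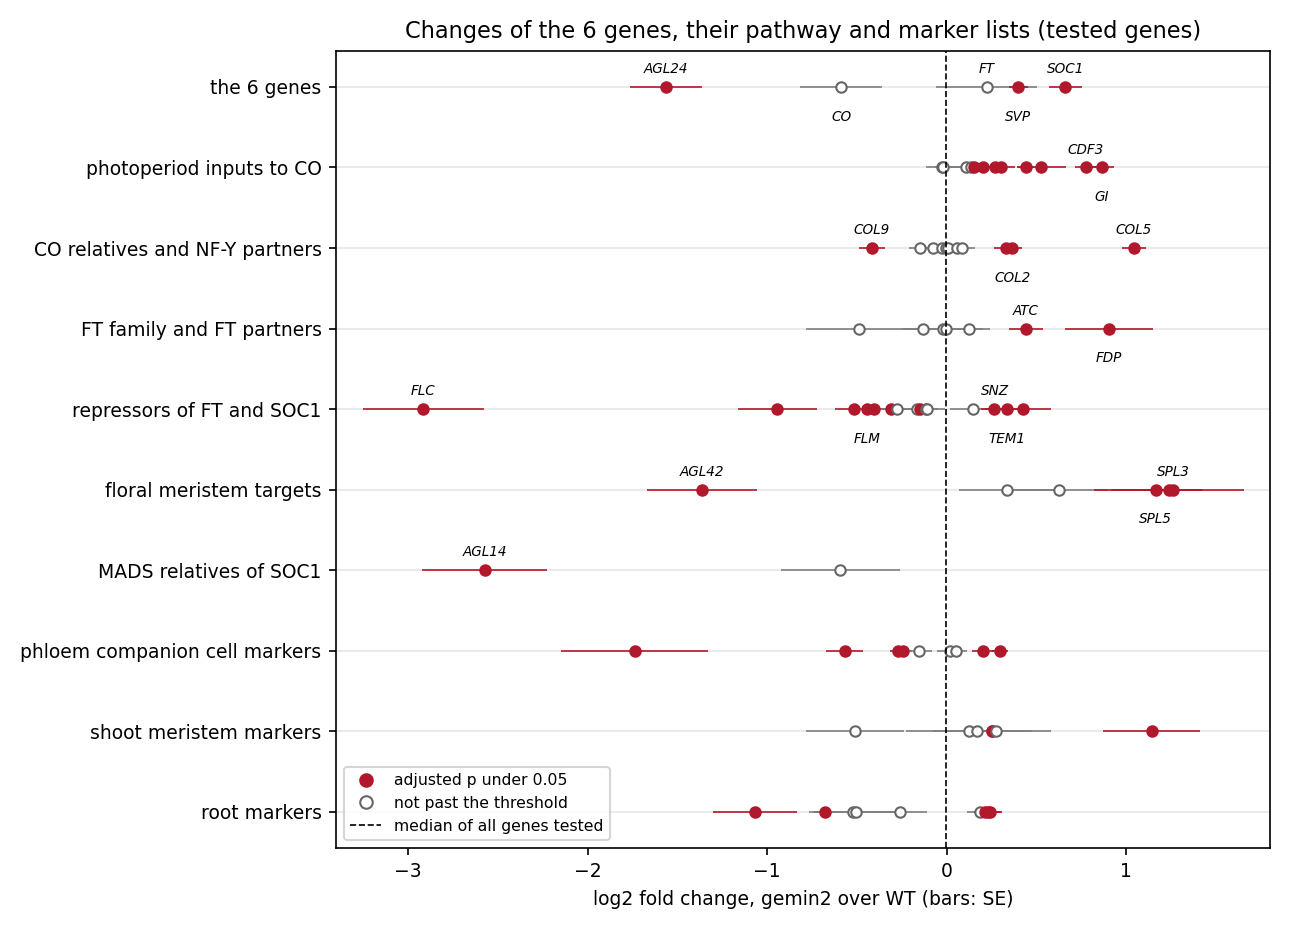
Log2 fold change, gemin2 over WT (x axis, bars are SE), of the tested genes among the 6, the pathway lists and 3 marker lists (rows); filled red points had an adjusted p under 0.05 and the dashed line marks the median of all genes tested. The 8 called photoperiod inputs all lie above 0, while the called repressors of FT and SOC1 lie on both sides, 3 above and 7 below.

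Some markers of the tissues in which these genes act also passed the threshold, which 36.7% of all genes tested did. Their part in the results was not tested. For the companion cells, where CO, FT and TSF are at work, 2 of 9 markers were higher and 4 lower. Their summed level was 545 to 580 CPM in gemin2 and 549 to 569 CPM in WT, so the ranges overlapped. The proton pump AHA3 and the sulfate transporter SULTR2;1 were higher, with log2 fold changes of 0.30 (SE 0.0429) and 0.20 (SE 0.0600). The sucrose transporter SUC2 (-0.27, SE 0.0489), PP2-A1 (-0.24), NAKR1 (-0.57) and SULTR1;3 (-1.74) were lower. NAKR1 overlaps AT5G02590, and SULTR1;3 had 9, 3 and 4 reads in gemin2, against 19, 15 and 16 in WT. For the shoot meristem, where SOC1 and AGL24 act, 7 of 10 markers were tested, and 2 were higher while the other 5 did not pass. The summed level was 101 to 108 CPM in gemin2, above the 84.8 to 89.8 CPM in WT. STM, which maintains the meristem, had a log2 fold change of 1.14 (SE 0.271), and the receptor kinase CLV1 one of 0.25. CLV1 made up most of the sum, with 78.9 ± 0.611 CPM in gemin2 and 66.3 ± 3.20 CPM in WT (SD, n = 3 each). The stem cell genes were near 0: WUS had 0 reads in gemin2 and 1 in WT, and CLV3 had 2 in gemin2 and 2 in WT.

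Flower organ markers were close to 0 in both genotypes, with a summed level of 0.579 to 1.29 CPM in gemin2 and 1.33 to 1.79 CPM in WT over 5 genes. The petal and stamen gene PI was the 1 tested, with a log2 fold change of -0.82 (SE 0.415) that did not pass (adjusted p 0.138). Root markers, which the label of whole plants calls for, were all detected. Of these 9, 3 were higher and 2 lower, with a summed level of 374 to 428 CPM in gemin2, below the 477 to 519 CPM in WT. The lower sum came from the iron transporter IRT1, the most abundant of them, with a log2 fold change of -0.68: the other 8 markers summed to 189 to 204 CPM in gemin2, above the 165 to 181 CPM in WT, a sum taken after the values were seen. RHD6, a root hair factor, was also lower at -1.07. The higher ones were SCR, a factor of the endodermis, at 0.21, the phosphate exporter PHO1 at 0.24 and the Casparian strip gene CASP1 at 0.23, which overlaps AT2G36090.

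The changes of the 3 called genes were set against their chromosomal surroundings, the 5 nearest tested genes on each side. Around AGL24, 2 of 10 neighbours were higher and the others did not pass, with log2 fold changes between -0.21 and 0.70, none near the -1.56 of AGL24 itself. Around SOC1, 3 were higher and 1 lower (-0.47 to 0.34), and around SVP 1 was higher and 1 lower (-0.30 to 0.37). SOC1 and SVP lay above the highest of their neighbours, SVP by a narrow margin. Around CO, 1 neighbour was higher and 1 lower, around TSF 1 was higher and 2 lower, and around FT 2 were higher and 2 lower. These counts stand beside the 36.7% of all genes tested that passed the same threshold.

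**Figure D4:**
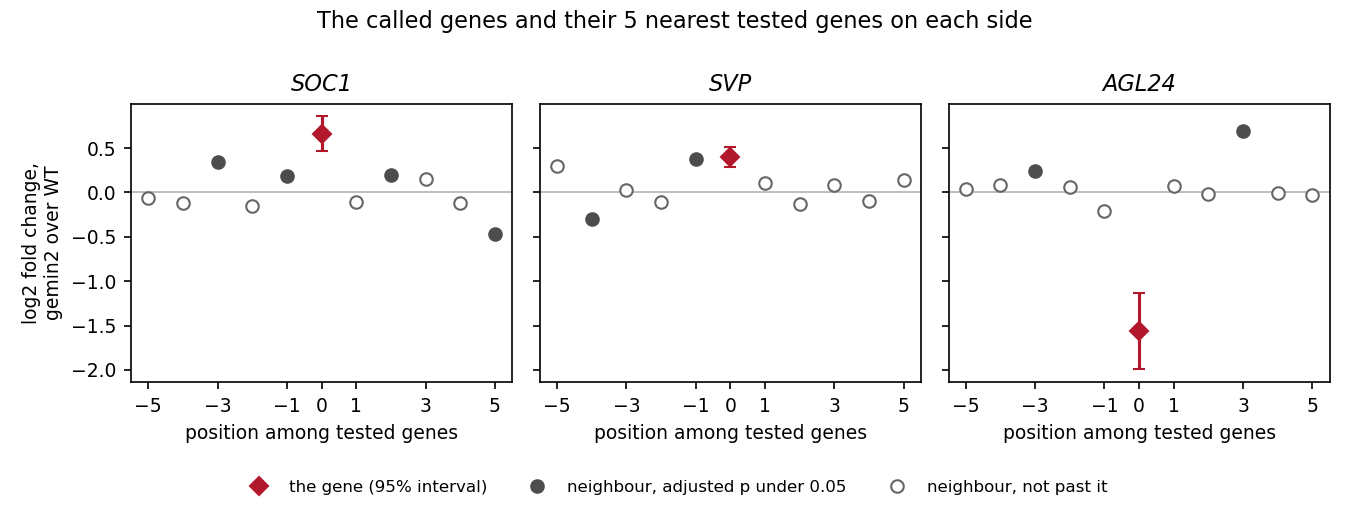
Log2 fold change, gemin2 over WT (y axis), of SOC1, SVP and AGL24 (red diamonds with 95% interval) and of the 5 nearest tested genes on each side, by order along the chromosome (x axis); filled grey points had an adjusted p under 0.05. AGL24, at -1.56, lies far below its neighbours, which run between -0.21 and 0.70, and SVP lies just above its highest neighbour at 0.37.

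Genes with the most similar profile were found by the Euclidean distance between log2 CPM values over the 6 libraries, each gene centred on its own mean, among 20757 other tested genes. The nearest to SVP were PDE327 (AT4G30720) at 0.0633 and TMT1 (AT1G20840) at 0.0741, against a median distance of 0.597 over all genes. The nearest to SOC1 were AT3G02010 at 0.163 and WRKY23 (AT2G47260) at 0.170, against a median of 0.906. AT2G02680 at 0.257 and AT5G52790 at 0.320 were nearest to AGL24, whose profile lay far from most genes (median 1.96). For CO they were CPL3 (AT4G01060) at 0.176 and AT3G47210 at 0.219, against a median of 0.965. For FT, AT4G38560 at 0.223 and WRKY33 (AT2G38470) at 0.305 were nearest, against a median of 0.867. The distances are descriptions over 6 libraries, in which genotype is 1 part of the profile and the spread within a genotype the other.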

How the data were processed

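Polyadenylated RNA of whole plants was sequenced, 3 libraries per genotype. The authors deposited whole-number read counts for genes, splicing bins and introns, none of them normalised. Their own comparison was deposited too, as log2 fold changes with false discovery rates (p-values after adjustment), per the column headers. The submitters' processing notes name TopHat2 2.0.9 and edgeR 3.4.2 under R 3.0.2, with the build TAIR10. The counting tool, and the handling of reads with several mapping places, are not stated in the labels or headers. Per the labels' protocols, a TruSeq kit was used on polyA-selected RNA with random hexamers, with no step that marks strand. The intron table is held in part: it covers chromosomes 1 and 2 and part of 3. Columns were mapped to genotypes by name, with 0 value columns unused. The labels do not say whether libraries of a genotype are separate cultures. The p-values therefore describe the spread among these libraries, which could be technical.

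Tests used edgeR 4.0.16 under R 4.3.3: filterByExpr with a minimum count of 10, TMM, and a two-sided quasi-likelihood F test of gemin2 over WT. Adjustment was by Benjamini-Hochberg over the whole table, with a threshold of 0.05. The SE is the size of the log2 fold change divided by the square root of F. For bins and introns the log gene count was the offset, with a minimum count of 5 and a gene mean of at least 20 reads. The scripts were tested on simulated data. The alternatives were DESeq2 1.42.0, other normalisations, filters and offsets, a robust fit, each library left out, and a replicate block by column letter added after the data were seen. Sequences, coding models and splice ends come from the RefSeq genome and annotation of TAIR10.1, read at the deposited coordinates.

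The 6 genes, the gene lists and the naming rule were chosen with earlier results of these data known. Named are the 6 genes, GEMIN2, defining markers and the 2 genes nearest in profile to each tested one of the 6. Each pathway list adds up to 2 genes called higher, those with the largest log2 fold change divided by its SE. It also adds up to 2 genes called lower, those with the most negative such ratio. Further called genes of these lists are counted but not named.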

Additional observations from a re-analysis of the deposited data

How the results depend on the processing

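SOC1, SVP and AGL24 kept their direction and stayed past the threshold under every alternative run. CO passed with no filter and in the robust fit (-0.59 in both), which raised the members called lower to 2, and with libraries left out it ran between -0.79 and -0.39, with 1 to 2 members lower. FT reversed to -0.037 without gemin2 A (range with a library left out -0.037 to 0.45), and FD ranged over -0.11 to 0.13. With library size in place of the gene count as offset, SVP E002 had 0.37, SVP I002 0.29, SVP I007 0.10 and SOC1 I006 0.59, none of them past the threshold. These values measure the level of the region and keep the change of the gene itself, 0.40 for SVP and 0.66 for SOC1. They are therefore not changes relative to the gene. With libraries left out, SVP E002 ranged over -0.10 to 0.057, SVP I002 over -0.47 to 0.20 and SOC1 I006 over -0.28 to 0.35. Of all bins, 219 were called in the analysis reported, 689 with the library size offset, 140 with a minimum count of 20, 84 with DESeq2 and 156 to 195 with a library left out. Of the introns analysed, 464 were called, 196 with a minimum count of 20, 118 with DESeq2 and 321 to 361 with a library left out. Genes called ranged over 6281 to 6817 with a library left out, and 5315 were called by DESeq2. The library size offset keeps the change of the gene. A minimum count of 20 tests fewer features, and a fit with a library left out has fewer libraries. Any further cause of the differing counts was not tested. No label ties the column letters A to C to replicate numbers, and libraries of the same letter did not deviate together (correlations of -0.0055, -0.016 and -0.058 over 20762 genes). A replicate block by letter, added after the data were seen, called 7512 genes, 201 bins and 374 introns. It changed no call among the tested members, their tested features and the tested named genes of the pathway lists. SOC1 stood at 0.65, SVP at 0.40, AGL24 at -1.57 and CO at -0.58. Over all pathway lists the block called 18 genes higher, against 19 in the analysis reported. Low read numbers kept TSF out of the filtered test, and the FT introns and most other member introns out of any test.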
